A study of Mus musculus with 12 samples.

Results

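The genotype by STZ interaction at 24 h is the difference between 2 responses, the change from vehicle to streptozotocin (STZ) in knockout islets minus the same change in control islets, on the log2 scale. It was computed for every gene: 17411 of the 24421 genes in the table had enough counts to be tested, and all of these are described here, with their counts by direction and with named examples. Floxed Bmal1 is common to all groups. Control islets (Bmal1fl/fl) have no Cre, and knockout islets (Bmal1fl/flRIPCreERT/+) have Cre fused to an oestrogen receptor domain. The rat insulin promoter drives that fusion, which is meant for insulin-expressing cells only. Each genotype received citrate buffer (vehicle) or a submaximal dose of STZ, and pancreatic islets were isolated 24 h later. The 4 groups hold 2 libraries each, A and B. Another 4 libraries of the series, taken 4 wk after STZ, entered the fit. The labels give no age, sex, dose or tamoxifen treatment, and none of the groups carries Cre without floxed Bmal1. They do not state either that A and B came from separate animals, so p-values reflect the spread of these libraries alone and part of it may be technical.

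BMAL1, encoded by Arntl, pairs with CLOCK or NPAS2 on E-box sequences and drives the genes of its own repressors (PER, CRY) and of the REV-ERB receptors, which in turn repress Arntl and other genes. In beta cells this loop times insulin secretion and defence against oxidative and endoplasmic reticulum stress. STZ is a glucose analogue that enters beta cells through the transporter GLUT2 (Slc2a2), alkylates their DNA and can kill them, and injured islets then draw macrophages and release inflammatory signals. An interaction asks whether that injury response differs between islets with and without beta-cell BMAL1.

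Total counts of the 8 libraries at 24 h ranged from 101772241 to 121311043. Levels are given as CPM, counts divided by library sizes that were scaled by TMM. A gene was called at a Benjamini-Hochberg adjusted p under 0.05 in edgeR's quasi-likelihood test over all tested genes. The choice of scale matters here: the median gene had an interaction of -0.01 (log2) with TMM, 0.06 with DESeq2 size factors, -0.79 per total count and 2.21 when libraries were scaled to a set of pan-endocrine genes. Every log2 interaction moves by nearly that amount, so a value between -2.21 and 0 is positive on the pan-endocrine scale and one between 0 and 0.79 is negative on the total-count scale. The labels describe the cells as mostly beta cells, but 30 acinar genes took 36.7 to 37.5% of control vehicle counts and 25 beta-cell identity genes 7.47 to 8.56%.

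Arntl, the targeted gene (chromosome 7, 113207465 to 113314126, mm10) was at 8.79 and 8.36 CPM in control vehicle, 11.2 and 10.8 in control STZ, 17.8 and 19.9 in knockout vehicle, and 8.88 and 9.43 in knockout STZ. The transcript was highest in knockout vehicle, and after STZ its level in knockout lay between those of the 2 control groups (log2 interaction -1.40, SE 0.16, adjusted p = 0.000153; 0.83 pan-endocrine). Exon 8 (113284999 to 113285156), the exon commonly floxed in Bmal1 mice, which the labels do not specify, had a coverage relative to its transcript of 1.75 and 1.99 in the libraries of control vehicle, 1.76 and 1.69 in those of control STZ, 0.627 and 0.671 in knockout vehicle, and 1.37 and 0.949 in knockout STZ. All knockout libraries were below all control libraries, and the knockout STZ pair lay above the knockout vehicle pair but differed within itself. Other exons of the transcript also differed within a group. Exon 5 was at 1.04 and 0.100 in the knockout vehicle libraries, and exon 7 at 1.77 and 0.786 in those of knockout STZ. In whole islets, cells without Cre activity carry an intact exon. Esr1, the mouse counterpart of the receptor part of the Cre fusion, was at 0.968 and 0.842 CPM in control vehicle, 2.29 and 1.67 in control STZ, 359 and 323 in knockout vehicle, and 51.1 and 54.9 in knockout STZ. It separated the genotypes in every library and rose in control and fell in knockout after STZ (log2 interaction -3.81, SE 0.27, adjusted p = 1.31e-05; -1.59 pan-endocrine).

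More genes passed the STZ test in knockout than in control islets. STZ changed 1317 genes in control (7.56% of those tested), 942 up (5.41%) and 375 down (2.15%). In knockout it changed 9814 (56.4%), 5247 up (30.1%) and 4567 down (26.2%). The interaction itself was called for 6558 genes (37.7%). Of these, 3676 (21.1% of tested genes) responded more positively in knockout and 2882 (16.6%) more negatively, a split of 56.1% to 43.9% that became 24.0% to 76.0% per total count and 99.6% to 0.419% on the pan-endocrine scale. At least 2-fold interactions numbered 3155 positive (18.1%) and 2009 negative (11.5%), and at least 4-fold ones 2146 (12.3%) and 572 (3.29%).

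Most called genes passed the STZ test in knockout islets and not in control ones, as did 8570 of all 17411 tested genes. The interaction uses the same knockout libraries as that test, so part of these shares is built in. Among positive interactions, 2628 (71.5%) passed the STZ test in knockout alone, 652 rose in both genotypes and more in knockout, 267 (7.26%) moved in opposite directions, and 34 passed in control alone. The median positive gene changed by 0.03 in control and by 2.63 in knockout (log2, groups at 0 counts set at 3). Negative interactions were more uniform, with 2741 (95.1%) past the threshold in knockout alone, 50 in opposite directions, 16 lower in both and more so in knockout, and 14 in control alone. Their median response was 0.02 in control and -1.29 in knockout. On the pan-endocrine scale the median over all tested genes lies at 2.21, so that most of these negative values change sign there.

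**Figure D1:**
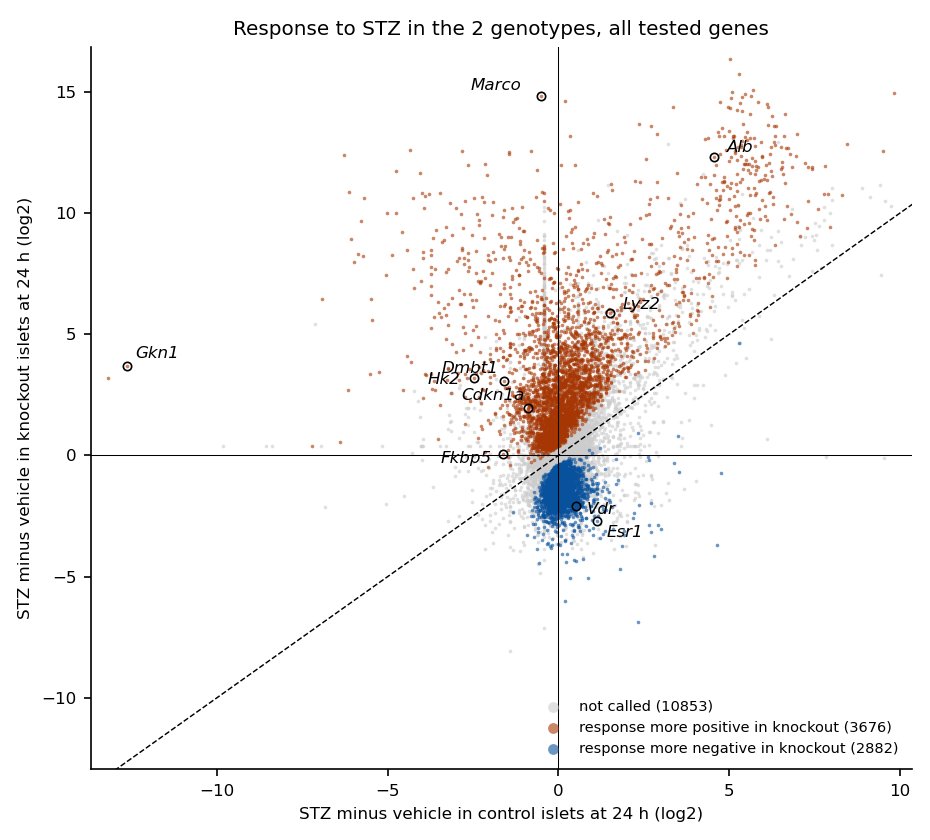
Each point is 1 of the 17411 tested genes, with the log2 change from vehicle to STZ at 24 h in control islets on the x axis and in knockout islets on the y axis, both TMM-scaled, with groups at 0 counts set at 3 counts. The dashed line marks equal responses; the 3676 genes called more positive lie above it and the 2882 called more negative below it, mostly near 0 on the x axis.

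The interaction combines a genotype difference under vehicle with one after STZ. The former passed for 1679 genes (9.64%), 342 higher (1.96%) and 1337 lower (7.68%) in knockout, the latter for 7491 (43.0%), 4119 higher (23.7%) and 3372 lower (19.4%). For 2436 of the 2882 negative genes (84.5%) only the difference after STZ was called, against 35.2% of all tested genes. The positive genes were less uniform: 2166 (58.9%) differed by genotype after STZ alone, 205 under vehicle alone, and 1053 (28.6%) under both treatments with opposite signs. Over all tested genes such a sign change was called for 1256 (7.21%). The interaction is the genotype difference after STZ minus that under vehicle. Opposite signs thus nearly fix a call, and the gap between these shares and those of all tested genes is largely built in. The vehicle libraries thus carry part of many positive interactions. Of the 30 acinar genes below, 21 were lower in knockout under vehicle and higher after STZ, as were 21 of 23 liver genes.

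On the TMM scale the beta-cell programme showed no called change in control islets and fell in knockout islets. Of 25 identity genes, 22 responded more negatively in knockout and 0 more positively, against 16.6% and 21.1% of all tested genes. These shares are the background for the interaction counts of every list below. The median interaction of the identity genes was -2.37. On the pan-endocrine scale it was -0.14, with 2 members called negative and 2 positive, so that nearly all of these calls were lost there. None of the 25 passed the STZ test in control, while 23 fell in knockout (median -2.08). Genes of the insulin granule and of exocytosis followed, with 23 of 25 more negative and a median of -1.97. On the pan-endocrine scale the median turned to 0.26, with 0 negative and 7 positive calls. Chga, Chgb, Scg2, Scg3, Scg5, Cpe, Pcsk2, Snap25 and Syt13 of this list are among the 20 genes that set that scale. So are Neurod1 and Nkx2-2 of the identity list. The loss of negative calls on that scale is thus partly built in, above all for the granule list. In bulk libraries, fewer cells of a type and less RNA per cell cannot be told apart.

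Slc2a2 (chromosome 3, 28697903 to 28728360, mm10), the transporter through which STZ enters, was at 593 and 605 CPM in control vehicle, 764 and 753 in control STZ, 585 and 668 in knockout vehicle, and 154 and 142 in knockout STZ. Both knockout STZ libraries lay far below the other 6, among which control STZ was highest (log2 interaction -2.42, SE 0.17, adjusted p = 1.21e-05; -0.20 pan-endocrine). Such a separation was common: the knockout STZ pair lay below the other 6 libraries for 31.7% of all tested genes and above them for 34.1%. Iapp, the amyloid peptide co-secreted with insulin, was at 16513 and 15402 CPM in control vehicle, 16624 and 16433 in control STZ, 19046 and 19196 in knockout vehicle, and 3652 and 3421 in knockout STZ. It did not pass in control and was lowest in both knockout STZ libraries (log2 interaction -2.49, SE 0.15, adjusted p = 6.26e-06; -0.26 pan-endocrine). Trpm5, a cation channel of glucose-stimulated secretion, was at 125 and 125 CPM in control vehicle, 116 and 121 in control STZ, 105 and 101 in knockout vehicle, and 14.2 and 15 in knockout STZ. Again the knockout STZ pair alone was at the bottom (log2 interaction -2.74, SE 0.13, adjusted p = 1.67e-06; -0.52 pan-endocrine). The incretin receptor gene Glp1r (-2.40, adjusted p = 4.37e-06) and the zinc transporter gene Slc30a8 (-2.37, adjusted p = 8.39e-06) had the same sign, at -0.18 and -0.14 on the pan-endocrine scale.

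The 2 insulin genes had noisier vehicle libraries. Ins1 was at 26479 and 22566 CPM in control vehicle, 33095 and 36281 in control STZ, 23835 and 15104 in knockout vehicle, and 5125 and 5698 in knockout STZ. Ins2 was at 51746 and 41530.2 CPM in control vehicle, 65449.6 and 71273 in control STZ, 80394 and 46830.5 in knockout vehicle, and 13081 and 15342 in knockout STZ. Replicate A of knockout vehicle exceeded B for both genes, yet both knockout STZ libraries lay below all others. Both interactions were called (Ins1 log2 interaction -2.35, SE 0.46, adjusted p = 0.00364; Ins2 log2 interaction -2.71, SE 0.58, adjusted p = 0.00575), at -0.13 and -0.50 on the pan-endocrine scale. Mafa, a maturity factor of beta cells, had low counts at 1.38 and 0.615 CPM in control vehicle, 2.74 and 3.71 in control STZ, 4.13 and 1.01 in knockout vehicle, and 0.195 and 0.612 in knockout STZ. Its value of -4.35 did not pass (SE 1.61, adjusted p = 0.0636).

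**Figure D2:**
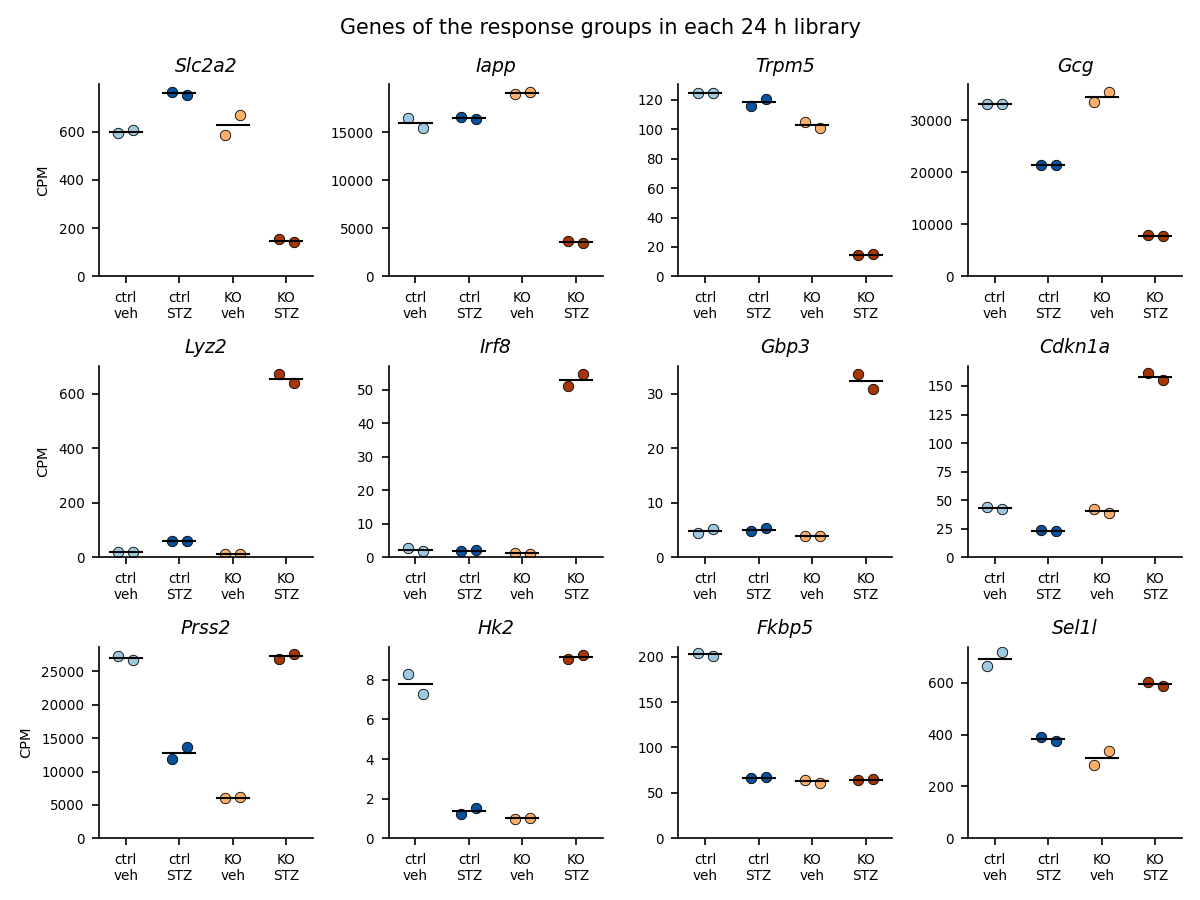
CPM of 12 genes on linear axes from 0, with 1 point per library (A left, B right) and a bar at the mean of the 2 libraries of control (ctrl) and knockout (KO) islets after vehicle (veh) or STZ. Slc2a2, Iapp and Trpm5 are lowest and Lyz2, Irf8, Gbp3 and Cdkn1a highest in knockout STZ; for Prss2, Hk2 and Sel1l control vehicle and knockout STZ are both high, and Fkbp5 is high in control vehicle alone.

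Within the granule list, Pcsk2, a convertase of prohormones, was at 2537 and 2508 CPM in control vehicle, 2704 and 2774 in control STZ, 3074 and 2881 in knockout vehicle, and 605 and 629 in knockout STZ. Knockout STZ was far below the rest (log2 interaction -2.39, SE 0.16, adjusted p = 9.64e-06; -0.17 pan-endocrine). Its chaperone gene Scg5 (-2.23, adjusted p = 1.33e-05), the granule membrane gene Ptprn2 (-2.07, adjusted p = 9.59e-06) and the calcium channel gene Cacna1d (-1.84, adjusted p = 9.75e-06) had values of -0.00, 0.15 and 0.39 on the pan-endocrine scale. Pcsk2 and Scg5 belong to the 20 genes that set that scale, so their values on it lie near 0 by construction.

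Lists for the other islet cells held negative and positive interactions, with negative medians on the TMM scale and positive ones on the pan-endocrine scale. Gcg (chromosome 2, 62474530 to 62483653), the glucagon gene of alpha cells, was at 33143 and 33049 CPM in control vehicle, 21347 and 21408 in control STZ, 33429 and 35453 in knockout vehicle, and 7853 and 7716 in knockout STZ. STZ lowered it in both genotypes (-0.63 in control, -2.15 in knockout), and more in knockout (log2 interaction -1.51, SE 0.13, adjusted p = 2.72e-05), a difference that was 0.71 on the pan-endocrine scale. Of 15 alpha-cell genes, 7 were more negative and 2 more positive, median -1.28 and 0.92 pan-endocrine, where 0 were negative and 7 positive. The transcription factor genes Irx2 (-1.93, adjusted p = 0.000281), Fev (-1.99, adjusted p = 0.00041) and Etv1 (-1.61, adjusted p = 0.00165) led, at 0.30, 0.23 and 0.62 pan-endocrine. An exception was the amino acid transporter gene Slc38a5 (1.38, adjusted p = 0.00559). Among 12 delta and PP cell genes, 6 were more negative and 4 more positive, median -1.18 and 1.04 pan-endocrine, where 0 were negative and 8 positive. Ghsr, the ghrelin receptor gene, was at -2.15 (0.07 pan-endocrine) and Sertm1 at -1.75 (0.47 pan-endocrine). Lepr, the leptin receptor gene, and Rbp4, which liver also makes, were at 3.55 and 1.14, with Cd24a at 1.40. Per total count the calls of Slc38a5 (0.59), Rbp4 (0.35) and Cd24a (0.61) were lost (adjusted p 0.104 to 0.120). Hhex was at 0.76 (-0.02 per total count), a call lost without any of 7 single libraries, all but knockout vehicle B (adjusted p up to 0.117).

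**Figure D3:**
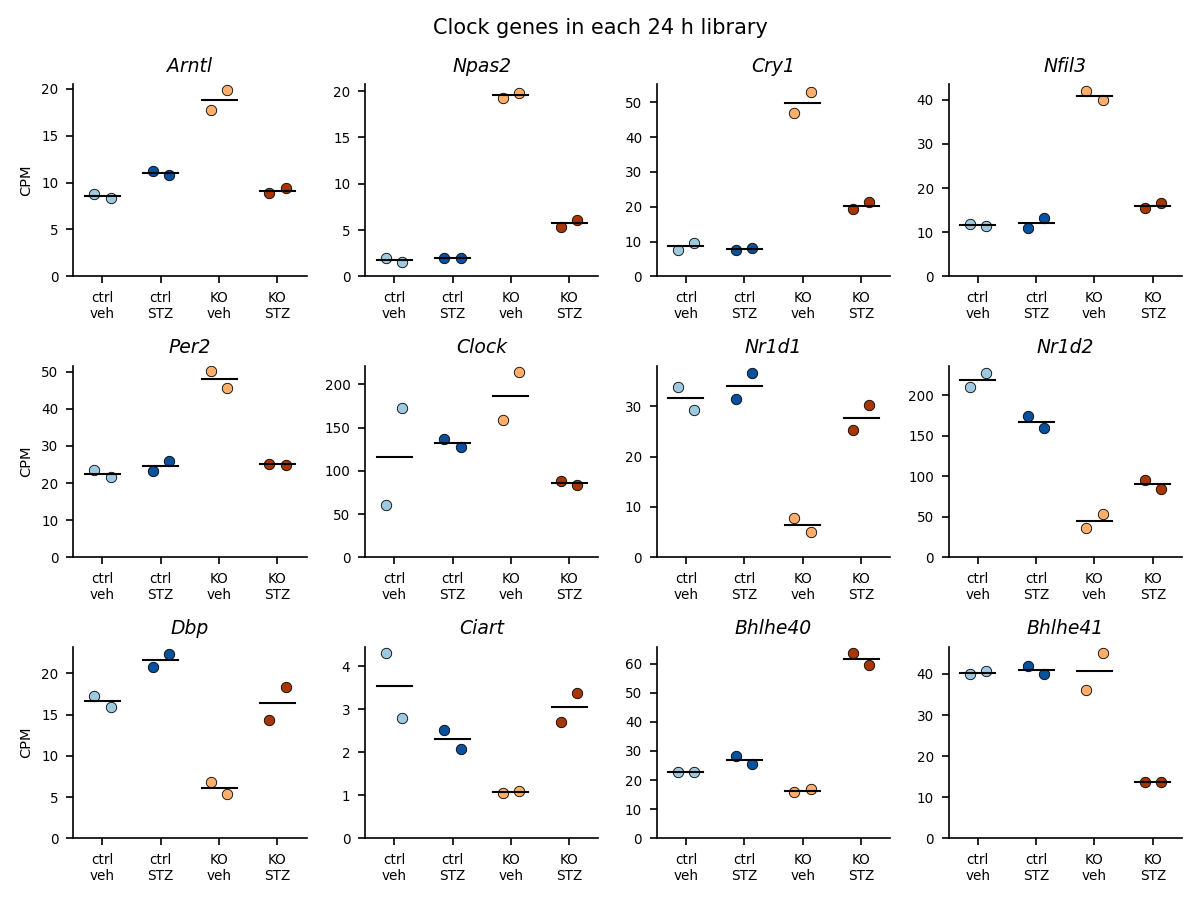
CPM of 12 clock genes on linear axes from 0, with 1 point per library (A left, B right) and a bar at the mean of the 2 libraries of control (ctrl) and knockout (KO) islets after vehicle (veh) or STZ. Arntl, Npas2, Cry1, Nfil3 and Per2 are highest in knockout vehicle and lower in knockout STZ, whereas Nr1d1, Nr1d2, Dbp and Ciart are lowest in knockout vehicle.

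Of 11 core clock genes tested, 5 responded more negatively in knockout and 0 more positively, with a median of -1.31 that became 0.91 on the pan-endocrine scale. None passed the STZ test in control and 6 fell in knockout, where 26.2% of all tested genes fell. The called genes Nfil3, Cry1, Npas2 and Arntl had vehicle levels above control in knockout islets. After STZ the gap was narrower for Nfil3, Cry1 and Npas2, whereas both knockout libraries lay below both control libraries for Arntl (values above). Npas2, the alternative partner of BMAL1, was at 1.93 and 1.54 CPM in control vehicle, 2.03 and 1.98 in control STZ, 19.3 and 19.8 in knockout vehicle, and 5.37 and 6.04 in knockout STZ. Knockout libraries stayed above control ones after STZ, but by less (log2 interaction -1.99, SE 0.28, adjusted p = 0.000665; 0.24 pan-endocrine). Nfil3, a repressor under REV-ERB control, had an interaction of -1.42, adjusted p = 0.000513 (0.81 pan-endocrine), and the repressor gene Cry1 one of -1.18, adjusted p = 0.00161 (1.04 pan-endocrine). Clock itself varied between 60.6 and 172 CPM within control vehicle, and its -1.31 did not pass (adjusted p = 0.121).

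The list of 14 E-box outputs had 7 genes that responded more positively in knockout and 2 that responded more negatively, against 21.1% and 16.6% of all tested genes, with a median of 0.78 (3.01 pan-endocrine). Per total count, 4 were called positive and 4 negative, with a median of 0. Nr1d1, the gene of REV-ERB alpha, was at 33.8 and 29.3 CPM in control vehicle, 31.5 and 36.5 in control STZ, 7.74 and 4.98 in knockout vehicle, and 25.2 and 30.3 in knockout STZ. The knockout vehicle pair lay below all others, and 1 of the knockout STZ libraries lay within the control range, the other below it (log2 interaction 2.02, SE 0.54, adjusted p = 0.018). That call was lost when any of 4 single libraries was left out, control vehicle A, control STZ A, knockout vehicle B or knockout STZ B (adjusted p up to 0.0668), and per total count (1.23, adjusted p = 0.0761). Nr1d2, its paralog, was at 210 and 227 CPM in control vehicle, 174 and 159 in control STZ, 36.2 and 54 in knockout vehicle, and 95.6 and 84.1 in knockout STZ. Every knockout library was below every control library (log2 interaction 1.39, SE 0.37, adjusted p = 0.0164). Dbp, a PAR-bZIP output factor, was likewise lowest in knockout vehicle, at 17.3 and 15.9 CPM in control vehicle, 20.8 and 22.4 in control STZ, 6.79 and 5.34 in knockout vehicle, and 14.4 and 18.3 in knockout STZ. It just missed the threshold (log2 interaction 1.05, SE 0.36, adjusted p = 0.0504). Bhlhe40, the gene of the E-box repressor DEC1, was at 22.9 and 22.9 CPM in control vehicle, 28.3 and 25.6 in control STZ, 15.9 and 16.8 in knockout vehicle, and 63.5 and 59.4 in knockout STZ. It was lower in knockout than in control under vehicle and highest in both knockout STZ libraries (log2 interaction 1.67, SE 0.13, adjusted p = 2.16e-05). Tsc22d3, a glucocorticoid and clock output, was at 44.6 and 45.8 CPM in control vehicle, 33.2 and 32.8 in control STZ, 29.2 and 30.7 in knockout vehicle, and 84.7 and 80.8 in knockout STZ. It was again highest in knockout STZ (log2 interaction 1.92, SE 0.13, adjusted p = 7.99e-06). The 2 exceptions were Per2 (-1.07, adjusted p = 0.00118; 1.16 pan-endocrine) and Bhlhe41, the gene of DEC2 (log2 interaction -1.58, SE 0.24, adjusted p = 0.000843; 0.64 pan-endocrine). Per2 was at 23.4 and 21.7 CPM in control vehicle, 23.3 and 26 in control STZ, 50.2 and 45.6 in knockout vehicle, and 25.2 and 24.9 in knockout STZ. Bhlhe41 was at 39.9 and 40.7 CPM in control vehicle, 41.9 and 40 in control STZ, 36.2 and 45.1 in knockout vehicle, and 13.8 and 13.7 in knockout STZ. Per2 had left the control range under vehicle and lay within it after STZ, whereas Bhlhe41 overlapped between genotypes under vehicle and was lowest in knockout STZ.

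The canonical E-box CACGTG, a palindrome that reads alike on both strands, was searched in RefSeq windows from 250 bases before to 50 after each start site (GRCm38.p6). It was present in 7.15% of all 32851 windows and in 8.97% of the windows of tested genes. Of the windows of E-box outputs, 5 of 16 held it (31.2%, the genes Bhlhe41, Ciart, Per1 and Tef). In the core clock list 1 of 16 windows did (Cry1). Windows were available for 12 of the 14 E-box outputs and 9 of the 11 core clock genes. Ciart and Bhlhe41 are shown because both windows hold the element, in capitals. On the TMM scale their interactions were opposite (Ciart 2.13, adjusted p = 0.00174, and Bhlhe41 above), but Bhlhe41 was positive on the pan-endocrine scale. Ciart was at 4.30 and 2.80 CPM in control vehicle, 2.53 and 2.08 in control STZ, 1.06 and 1.10 in knockout vehicle, and 2.71 and 3.39 in knockout STZ.
Ciart (chr3:95882179-95882478, minus strand): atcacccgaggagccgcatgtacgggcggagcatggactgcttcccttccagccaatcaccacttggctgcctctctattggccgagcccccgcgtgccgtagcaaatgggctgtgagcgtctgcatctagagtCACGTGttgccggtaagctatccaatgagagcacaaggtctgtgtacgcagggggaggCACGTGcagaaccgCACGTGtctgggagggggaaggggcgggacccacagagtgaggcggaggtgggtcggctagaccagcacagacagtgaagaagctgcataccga
Bhlhe41 (chr6:145865371-145865670, minus strand): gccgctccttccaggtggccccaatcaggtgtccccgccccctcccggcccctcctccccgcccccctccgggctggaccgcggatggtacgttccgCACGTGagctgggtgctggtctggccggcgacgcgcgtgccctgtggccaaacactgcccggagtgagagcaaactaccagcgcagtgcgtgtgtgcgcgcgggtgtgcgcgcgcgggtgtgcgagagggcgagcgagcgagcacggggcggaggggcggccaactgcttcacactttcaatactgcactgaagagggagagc
Ciart carries 3 copies and Bhlhe41 1 copy. A match describes these letters only and is not a measured binding site.

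Stress genes of the endoplasmic reticulum did not move as 1 group. In the list for the unfolded protein and integrated stress response, 13 of 29 genes were more negative in knockout and 5 more positive. Over all tested genes these shares were 16.6% and 21.1%, so the positive share was not above background. The list had a median of -0.53 (1.69 pan-endocrine). Hyou1, an endoplasmic reticulum chaperone gene, was at 426 and 416 CPM in control vehicle, 582 and 593 in control STZ, 848 and 711 in knockout vehicle, and 334 and 343 in knockout STZ. It was highest in knockout vehicle and lowest in knockout STZ (log2 interaction -1.69, SE 0.23, adjusted p = 0.00049; 0.54 pan-endocrine). Sdf2l1 had -1.25, adjusted p = 0.000103 (0.97 pan-endocrine). Sel1l, Herpud1 and Edem1 on the positive side act in the degradation of misfolded proteins. Sel1l, the adaptor of the HRD1 ligase, was at 666 and 718 CPM in control vehicle, 389 and 377 in control STZ, 284 and 336 in knockout vehicle, and 603 and 589 in knockout STZ. It was high in control vehicle and knockout STZ and low in the other 2 groups (log2 interaction 1.8, SE 0.18, adjusted p = 8.09e-05). Herpud1 was at 411 and 392 CPM in control vehicle, 189 and 191 in control STZ, 167 and 149 in knockout vehicle, and 277 and 282 in knockout STZ. Its groups had the same order (log2 interaction 1.91, SE 0.17, adjusted p = 3.87e-05). Edem1 (1.38, adjusted p = 0.00126) and the asparagine synthetase gene Asns (1.07, adjusted p = 0.00484) were also highest in control vehicle and knockout STZ. Per total count both calls were lost, at 0.59 (adjusted p = 0.0515) and 0.28 (adjusted p = 0.312). The sensor gene Eif2ak3 was smaller (0.47, adjusted p = 0.0138; -0.31 per total count), and its call was lost without control vehicle B, control STZ A, control STZ B or knockout STZ B (adjusted p up to 0.0559). Ddit3, the gene of the stress factor CHOP, had -0.68 and did not pass (adjusted p = 0.413).

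Sterol and fatty acid synthesis genes leaned to the negative side, 12 of 24 against 1 more positive, with a median of -0.76 (1.46 pan-endocrine). Sqle, an enzyme of sterol synthesis, was at 89.7 and 91.4 CPM in control vehicle, 101 and 97.8 in control STZ, 134 and 149 in knockout vehicle, and 48.2 and 46.2 in knockout STZ. Its level was highest in knockout vehicle and lowest in knockout STZ (log2 interaction -1.72, SE 0.15, adjusted p = 2.9e-05; 0.51 pan-endocrine). The exception was the desaturase gene Scd1, at 26.1 and 28.7 CPM in control vehicle, 161 and 158 in control STZ, 19.7 and 24 in knockout vehicle, and 336 and 311 in knockout STZ. It rose in both genotypes and more in knockout (log2 interaction 1.35, SE 0.20, adjusted p = 0.000761).

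All 28 macrophage genes rose after STZ in knockout (30.1% of tested genes did) and 11 did in control (5.41%), and 25 of 28 had a positive interaction (21.1% of tested genes did), with a median of 3.12 (2.33 per total count). Lyz2, the lysozyme gene of myeloid cells, was at 21.1 and 20.6 CPM in control vehicle, 61.5 and 58.4 in control STZ, 11 and 11.1 in knockout vehicle, and 669.7 and 637 in knockout STZ. Knockout STZ stood far above control STZ, and the latter above both vehicle groups (log2 interaction 4.36, SE 0.16, adjusted p = 3.93e-07; chromosome 10, 117277541 to 117282272). Lgals3, the galectin-3 gene, was at 3.14 and 2.44 CPM in control vehicle, 5.22 and 5.34 in control STZ, 1.07 and 1.32 in knockout vehicle, and 57.9 and 57.9 in knockout STZ (log2 interaction 4.68, SE 0.23, adjusted p = 2.22e-06). The protease gene Ctss was at 26.9 and 26.8 CPM in control vehicle, 36.8 and 34 in control STZ, 18.6 and 22.1 in knockout vehicle, and 234 and 225 in knockout STZ (log2 interaction 3.10, SE 0.15, adjusted p = 1.91e-06). Aif1 was at 1.73 and 1.37 CPM in control vehicle, 1.66 and 1.76 in control STZ, 1.26 and 1.14 in knockout vehicle, and 25.8 and 24.7 in knockout STZ (log2 interaction 4.25, SE 0.26, adjusted p = 6.24e-06). For Ctss and Aif1 the control response did not pass. Both knockout STZ libraries lay above the other 6, as for all 28 genes of the list and 34.1% of all tested genes. Summed over the list, these genes took 0.0144% and 0.0148% of counts in control vehicle, 0.0331% and 0.0321% in control STZ, 0.0166% and 0.0169% in knockout vehicle, and 0.215% and 0.210% in knockout STZ.

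Antigen presentation followed. All 9 MHC class II genes had a positive interaction (median 3.53), and in control 0 rose and 1 fell. H2-Aa was at 42.5 and 40.7 CPM in control vehicle, 40.7 and 40.8 in control STZ, 32.4 and 31.1 in knockout vehicle, and 352 and 361 in knockout STZ (log2 interaction 3.52, SE 0.17, adjusted p = 1.46e-06). H2-Eb1 (3.32, adjusted p = 1.96e-05) and the class II activator gene Ciita (5.86, adjusted p = 2.73e-05) were also highest in knockout STZ. H2-Ob, which B cells express, went from 2.75 and 3.44 CPM in control vehicle down to 0.552 and 0.369 in control STZ, and in knockout from 0.317 and 0.270 up to 74.1 and 67.5. Class I genes and their peptide loading, which every nucleated cell can raise, had 11 positive of 17 and 0 negative, median 1.66 (1.65 with the member that had a group at 0 set at 3 counts). B2m, the class I light chain, was at 86.9 and 92.3 CPM in control vehicle, 168 and 173 in control STZ, 73.4 and 91.1 in knockout vehicle, and 965 and 923 in knockout STZ (log2 interaction 2.59, SE 0.20, adjusted p = 2.12e-05). The class I activator gene Nlrc5 had 5.50, adjusted p = 5.01e-05. H2-Q4 had 1.55, adjusted p = 0.000611, and H2-Q7, which shares 99% of its exon bases with the H2-Q9 locus in the annotation and is uncertain, differed between its knockout STZ libraries (10 and 24.6 CPM).

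Interferon response genes rose in knockout islets with few changes in control ones. Of 36 genes, 30 had a positive interaction and 2 a negative one, and the median was 1.94 (1.16 per total count). In control 1 rose and 1 fell after STZ, against 34 and 1 in knockout. Gbp3, a guanylate-binding protein gene induced by interferons, was at 4.47 and 5.16 CPM in control vehicle, 4.77 and 5.30 in control STZ, 3.85 and 3.83 in knockout vehicle, and 33.7 and 30.9 in knockout STZ (log2 interaction 3.0, SE 0.20, adjusted p = 8.83e-06). Irf8, a factor of myeloid and B cells, was at 2.69 and 1.74 CPM in control vehicle, 1.94 and 2.10 in control STZ, 1.28 and 1.13 in knockout vehicle, and 51.3 and 54.6 in knockout STZ (log2 interaction 5.59, SE 0.42, adjusted p = 1.87e-05). For both genes the knockout STZ pair lay above the other 6 libraries, as for 34 genes of the list and 34.1% of all tested genes. Gbp6 fell in control, to 4.17 and 4.09 CPM, and reached 20.1 and 20 in knockout STZ (log2 interaction 3.25, SE 0.25, adjusted p = 1.7e-05). The negative exceptions were Usp18 and Rsad2, the gene of viperin. Rsad2 was at 15.8 and 16.3 CPM in control vehicle, 19.9 and 20.1 in control STZ, 23.6 and 27.2 in knockout vehicle, and 16.9 and 15.2 in knockout STZ (log2 interaction -0.98, SE 0.21, adjusted p = 0.00582; 1.25 pan-endocrine). Usp18, a negative regulator of interferon signalling, had -0.47, adjusted p = 0.0357 (1.75 pan-endocrine), and its call was lost whenever any 1 of the 8 libraries was left out (adjusted p up to 0.12).

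The core of the interferon-stimulated response element was taken as GAAA, any pair of bases and GAAA again on either strand. It was present in 3.44% of all windows and in 3.17% of those of tested genes. Of the windows of interferon list genes, 17 of 31 held it (54.8%), belonging to 16 of 25 genes with a window. MHC class I genes had it in 4 of 16 windows and clock genes in none of 32 windows. Gbp3 and Rsad2 are shown because both hold it, on the strand opposite to the gene and so printed as its reverse complement in capitals. On the TMM scale their interactions differed in sign, but Rsad2 was positive on the pan-endocrine scale.
Gbp3 (chr3:142559794-142560093, plus strand): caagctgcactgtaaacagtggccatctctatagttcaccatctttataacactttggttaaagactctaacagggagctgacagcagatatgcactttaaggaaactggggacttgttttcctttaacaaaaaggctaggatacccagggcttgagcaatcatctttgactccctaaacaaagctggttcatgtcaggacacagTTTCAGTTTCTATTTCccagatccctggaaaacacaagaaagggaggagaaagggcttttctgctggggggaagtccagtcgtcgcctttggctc
Rsad2 (chr12:26456403-26456702, minus strand): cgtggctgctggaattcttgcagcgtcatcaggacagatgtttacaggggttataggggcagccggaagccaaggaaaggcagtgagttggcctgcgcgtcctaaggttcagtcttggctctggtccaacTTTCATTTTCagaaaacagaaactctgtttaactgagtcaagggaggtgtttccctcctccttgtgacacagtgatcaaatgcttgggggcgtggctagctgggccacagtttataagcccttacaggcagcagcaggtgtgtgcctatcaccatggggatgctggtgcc
In Gbp3 the capitals cover 2 overlapping matches that start 45 and 39 bases before the start site, and in Rsad2 1 match that starts 120 bases before it. Another Gbp3 window, not shown, held no match.

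Of 33 NF-kB targets, 24 had a positive interaction and 0 a negative one, median 3.23 (also with the 2 members that had a group at 0 set at 3 counts). Vcam1, an adhesion molecule for leukocytes, was at 7.93 and 7.75 CPM in control vehicle, 7.79 and 6.98 in control STZ, 2.87 and 4.02 in knockout vehicle, and 140.4 and 124 in knockout STZ (log2 interaction 5.35, SE 0.29, adjusted p = 3.2e-06). The feedback inhibitor gene Nfkbie (2.74, adjusted p = 2.16e-05) and the survival gene Birc3 (2.89, adjusted p = 1.25e-05) were positive as well. Cxcl9, a chemokine induced by interferon gamma, was at 0.326 and 0.250 CPM in control vehicle, 0.710 and 1.01 in control STZ, 0 and 0 in knockout vehicle, and 23.5 and 22.3 in knockout STZ. The last pair was at least 1990-fold above knockout vehicle with 3 counts over the group as its floor. Lymphocyte genes moved beside these lists: 15 of 19 had a positive interaction, with a median of 9.47 when the 10 members with a group at 0 were set at 3 counts. They took 0.00305% and 0.00339% of counts in control vehicle, 0.00143% and 0.00127% in control STZ, 0.00127% and 0.00120% in knockout vehicle, and 0.0661% and 0.0644% in knockout STZ. Knockout STZ was the highest group and control vehicle the next. Their part in the antigen presentation, interferon and NF-kB results was not tested.

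Of 34 p53 targets, 18 had a positive interaction and 1 a negative one, with a median of 1.10 (0.32 per total count, 1.12 with 1 member's group at 0 set at 3 counts). Ccnb1 of this list is also on the replication and mitosis list, and p53 activity itself was not measured. Cdkn1a (chromosome 17, 29090986 to 29100722), the gene of the cell-cycle inhibitor p21, was at 44.2 and 42.7 CPM in control vehicle, 23.7 and 22.9 in control STZ, 42.3 and 38.9 in knockout vehicle, and 161 and 155 in knockout STZ. STZ lowered it in control (-0.90) and raised it in knockout (1.96), where both libraries exceeded all others (log2 interaction 2.86, SE 0.14, adjusted p = 1.67e-06). Pmaip1, which encodes the death promoter NOXA, was at 1.16 and 2.52 CPM in control vehicle, 0.816 and 1.06 in control STZ, 0.635 and 0.744 in knockout vehicle, and 14.6 and 13.8 in knockout STZ (log2 interaction 5.34, SE 0.51, adjusted p = 6.38e-05). Fas, a death receptor gene, was at 6.54 and 6.86 CPM in control vehicle, 3.67 and 3.69 in control STZ, 3.20 and 3.62 in knockout vehicle, and 15.8 and 13.1 in knockout STZ (log2 interaction 2.95, SE 0.28, adjusted p = 5.6e-05). Perp was at 24.9 and 30.1 CPM in control vehicle, 19.1 and 16.2 in control STZ, 7.60 and 10.4 in knockout vehicle, and 61.8 and 54.3 in knockout STZ. It was lowest in knockout vehicle (log2 interaction 3.33, SE 0.30, adjusted p = 4.91e-05). Other targets did not pass, among them Bax (0.27, adjusted p = 0.833), Zmat3 (0.02, adjusted p = 0.961) and Xpc (-0.00, adjusted p = 1). Tigar, a regulator of glycolysis, was the exception (-1.50, adjusted p = 8.09e-05; 0.73 pan-endocrine). Many p53 targets are expressed outside beta cells, and which cells carried these changes was not tested. Among 20 genes for repair of alkylated DNA and NAD use, 5 were positive, a share near the 21.1% of all tested genes, and 0 negative (median 0.18). Per total count 0 were positive and 9 negative (median -0.61). Of 15 heat shock genes 1 was positive and 0 negative, against 0 and 9 per total count.

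Immediate early genes, which islet dissociation can raise, had 15 positive of 20 and 0 negative, median 1.65. Fosb was at 5.92 and 5.54 CPM in control vehicle, 8.70 and 8.34 in control STZ, 0.736 and 0.923 in knockout vehicle, and 11.9 and 11.2 in knockout STZ. It was lowest in knockout vehicle and highest in knockout STZ (log2 interaction 3.23, SE 0.24, adjusted p = 1.47e-05). Zfp36, which destabilises cytokine mRNAs, was at 29.1 and 28.8 CPM in control vehicle, 26.6 and 28.6 in control STZ, 12.3 and 11 in knockout vehicle, and 83.9 and 84.2 in knockout STZ (log2 interaction 2.92, SE 0.14, adjusted p = 1.7e-06). Klf4 (1.82, adjusted p = 7.1e-05) and Atf3 (3.45, adjusted p = 6.19e-05) were positive too. Replication and mitosis genes had 18 positive of 24 and 0 negative, median 1.61, with 6 rising in control and 21 in knockout. Mki67, the proliferation marker, was at 10.1 and 12.1 CPM in control vehicle, 17 and 16.4 in control STZ, 3.71 and 4.66 in knockout vehicle, and 39.9 and 35.8 in knockout STZ (log2 interaction 2.59, SE 0.33, adjusted p = 0.00033). Top2a (2.15, adjusted p = 0.000557), the helicase gene Mcm3 (1.79, adjusted p = 0.000134) and Rrm2 (1.79, adjusted p = 0.000303) had the same sign. Matrix and stellate cell genes had 16 positive of 22 and 0 negative, median 2.28 (2.29 with 1 member's group at 0 set at 3 counts). Fn1, fibronectin, was at 13.4 and 12.9 CPM in control vehicle, 83.5 and 89.3 in control STZ, 3.09 and 1.97 in knockout vehicle, and 327 and 349 in knockout STZ. It rose in both genotypes and further in knockout (log2 interaction 4.34, SE 0.31, adjusted p = 1.24e-05), as did Dcn (2.67, adjusted p = 7.07e-05) and Pdgfra (2.95, adjusted p = 6.83e-06). Acta2, smooth muscle actin, fell in control and rose in knockout, from 6.55 and 4.34 to 24.1 and 28.4 CPM (log2 interaction 3.54, SE 0.35, adjusted p = 7.64e-05).

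Genes that mature beta cells normally silence had 16 positive of 21 and 2 negative, median 2.83 (2.84 with 1 member's group at 0 set at 3 counts). Hk2, a high-affinity hexokinase, was at 8.28 and 7.28 CPM in control vehicle, 1.24 and 1.55 in control STZ, 0.981 and 1.02 in knockout vehicle, and 9.06 and 9.26 in knockout STZ. Control vehicle and knockout STZ were thus alike, and the other groups low (log2 interaction 5.67, SE 0.28, adjusted p = 1.91e-06). Cat, catalase, was at 29.5 and 29 CPM in control vehicle, 148 and 149 in control STZ, 9.98 and 11.6 in knockout vehicle, and 351 and 349 in knockout STZ. It rose in both genotypes and more in knockout (log2 interaction 2.68, SE 0.14, adjusted p = 2.61e-06). Oat (2.95, adjusted p = 1.5e-06) and the chemokine gene Cxcl12 (3.68, adjusted p = 1.05e-06) were positive, and the progenitor gene Neurog3 (-2.69, adjusted p = 0.000511; -0.48 pan-endocrine) and Tnfrsf11b (-1.72, adjusted p = 0.00083; 0.51 pan-endocrine) negative. Several of these genes are also expressed by exocrine, stromal or immune cells, whose markers moved the same way, and their part was not tested.

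Lists of redox and energy metabolism had smaller and mixed interactions. Among 22 NRF2 and antioxidant genes, 11 were positive and 2 negative (median 0.88), which became 6 and 8 per total count (median 0.09). The peroxide-reducing Gpx2 on the negative side is described below. Of 24 respiratory chain genes, 7 were positive and 2 negative (median 0.38; 0 and 9 with a median of -0.40 per total count), and of 22 glycolysis and hypoxia genes 6 and 2 (median 0.24; 5 and 8 with a median of -0.55 per total count). Endothelial genes had 7 positive and 3 negative of 17 (median 0.60; 5 and 4 with a median of -0.19 per total count). Over all tested genes the shares were 21.1% positive and 16.6% negative.

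Markers of other tissues gave some of the largest interactions. All 30 acinar genes were positive (median 3.16), 18 of them falling in control after STZ and 30 rising in knockout. Prss2, a trypsinogen gene, was at 27308 and 26709.6 CPM in control vehicle, 11904 and 13657 in control STZ, 5988 and 6145 in knockout vehicle, and 26908 and 27649 in knockout STZ. STZ lowered it in control and raised it in knockout, where it overlapped the control vehicle libraries (log2 interaction 3.25, SE 0.14, adjusted p = 1.05e-06). Rnase1 (3.25, adjusted p = 6.81e-07) and Try5 (3.96, adjusted p = 4.86e-07) crossed in the same way. Trypsinogen genes such as Prss2 and Try5 are near copies of each other, so their separate values are uncertain. The list took 37.5% and 36.7% of counts in control vehicle, 24.7% and 25.1% in control STZ, 12.3% and 12.1% in knockout vehicle, and 40.6% and 41.3% in knockout STZ. The beta-cell identity list took 8.56% and 7.47% of counts in control vehicle, 13% and 13.7% in control STZ, 16.1% and 11% in knockout vehicle, and 2.08% and 2.31% in knockout STZ, lowest where the acinar list was highest. Of 18 ductal genes, 12 were positive and 1, Krt7 (-1.34, adjusted p = 0.0407; 0.88 pan-endocrine), negative, a call lost without 7 of the 8 single libraries (adjusted p up to 0.125), knockout vehicle B being the exception. Sox9 (2.52, adjusted p = 4.08e-05), Spp1 (2.29, adjusted p = 2.98e-05), Muc1 (3.82, adjusted p = 8.74e-06) and Tff2 (2.80, adjusted p = 2.33e-05) had the smallest p-values of the positive members, whose highest interaction was 5.33.

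Liver genes rose in both genotypes. Of 23 hepatocyte genes, 21 had a positive interaction and 21 rose in each genotype after STZ. Knockout was below control under vehicle and above it after STZ for 21 of them. Alb, albumin, was at 117 and 129 CPM in control vehicle, 2853 and 2932 in control STZ, 1.84 and 2.22 in knockout vehicle, and 10761 and 10129.9 in knockout STZ (log2 interaction 7.77, SE 0.23, adjusted p = 1.73e-07). Ahsg (8.81, adjusted p = 2.04e-07) and Serpina3k (8.73, adjusted p = 1.73e-07) were lowest in knockout vehicle and highest in knockout STZ as well. Acute phase genes, which liver and injured pancreas both make, were positive in 15 of 15, with a median of 6.61 when groups at 0 were set at 3 counts, against 7.75 for the liver list. Reg3a, a regenerating protein gene of the exocrine pancreas, was at 1877 and 1970.2 CPM in control vehicle, 161 and 156 in control STZ, 201 and 261 in knockout vehicle, and 1539 and 1429 in knockout STZ. It was high in control vehicle and knockout STZ (log2 interaction 6.28, SE 0.32, adjusted p = 2.31e-06). Serpina3n went from 2.87 and 1.87 CPM in knockout vehicle to 442 and 457 in knockout STZ and did not pass in control (log2 interaction 7.34, SE 0.31, adjusted p = 1.05e-06). Itih4 had 4.63, adjusted p = 8.31e-07. The intestinal gene Clca1 was at 28.3 and 31 CPM in control vehicle, 34.6 and 33.3 in control STZ, 0 and 0 in knockout vehicle, and 295 and 289 in knockout STZ. The last pair was at least 25400-fold above knockout vehicle. Of 20 intestinal genes, 13 were positive and 0 negative, of 12 stomach genes 7 and 1, and of 10 neutrophil genes 7 and 0, with medians of 7.26, 8.0 and 5.37 when groups at 0 were set at 3 counts.

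The 10 largest positive values came from genes with groups at 0 counts, so their size is not interpretable beyond a bound. Gkn1 and Gkn2, gastrokines of the stomach lining, were at 84.7 and 75.8 and at 118 and 114 CPM in control vehicle, at 0 in control STZ and knockout vehicle, and at most 0.185 in knockout STZ. Their interaction thus came from control vehicle, where they stood at least 6400-fold above control STZ. B-cell and lymphoid genes (Cr2, Blk, Fcer2a, Cxcr5, H2-Eb2, Glycam1) were highest in knockout STZ instead. Cr2, a complement receptor gene of B cells, was at 3.44 and 5.12 CPM in control vehicle, 0.0526 and 0.0561 in control STZ, 0 and 0 in knockout vehicle, and 64.5 and 58.9 in knockout STZ. It was at least 5360-fold up in knockout. Marco, a scavenger receptor gene of some tissue macrophages, was at 1.43 and 1.15 CPM in control vehicle, 0.684 and 1.11 in control STZ, 0 and 0 in knockout vehicle, and 324 and 348 in knockout STZ. It was at least 29300-fold up. A count of 0 over both knockout vehicle libraries allows 0.0115 CPM.

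**Figure D4:**
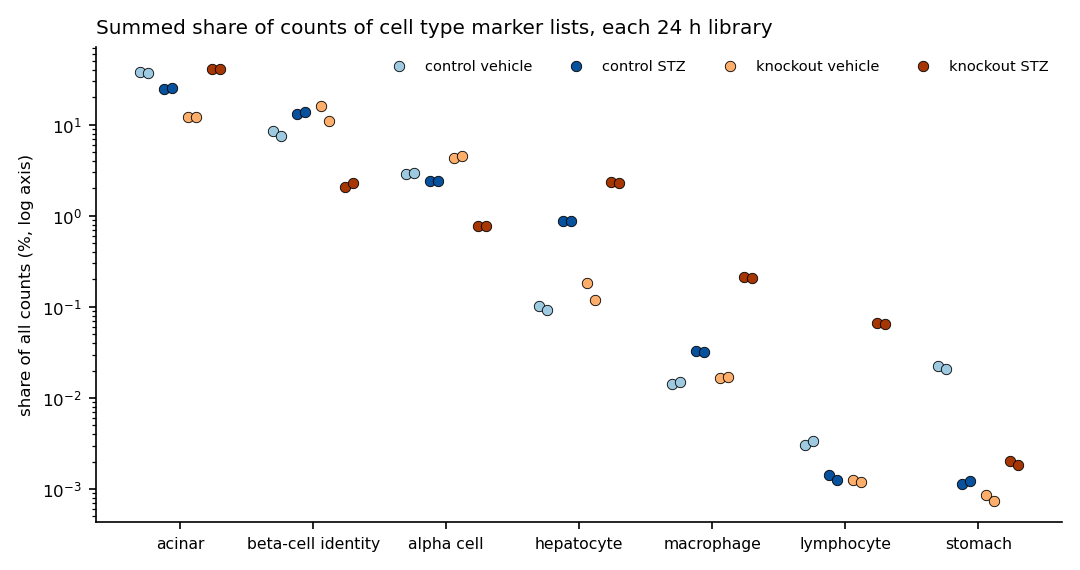
Summed share of all counts (%, log axis) taken by the genes of 7 cell type lists, with 1 point per 24 h library and colours for the 4 groups. Acinar shares are lowest in knockout vehicle (12.1 and 12.3%), beta-cell and alpha-cell shares lowest in knockout STZ, liver, macrophage and lymphocyte shares highest in knockout STZ, and stomach shares highest in control vehicle.

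The libraries therefore differ by group in exocrine, liver, lymphoid and stomach transcripts, and A and B of a group are mostly alike in them. An exception was the liver share of knockout vehicle, at 0.181% in A and 0.119% in B. Both values exceeded those of control vehicle (0.103% and 0.093%), although 21 of 23 liver genes were lower in knockout under vehicle. The summed share of the vehicle libraries thus does not follow most members of the list. The liver list holds Ttr, also an alpha-cell list member, whose part in that share was not tested. For the exocrine, liver, lymphoid and stomach lists, other tissue carried along at isolation and a response to STZ cannot be told apart, since both libraries of a group share it. Their part in the results on other genes was not tested.

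On the TMM scale, genes with opposite responses gave the clearest contrast between genotypes. On the negative side, Vdr (chromosome 15, 97854427 to 97908296), the vitamin D receptor gene, was at 141 and 148 CPM in control vehicle, 206 and 210 in control STZ, 218 and 229 in knockout vehicle, and 52.3 and 53.4 in knockout STZ (log2 interaction -2.61, SE 0.12, adjusted p = 1.46e-06). Adra2a, the adrenergic receptor gene that restrains insulin release, was at 37.4 and 37 CPM in control vehicle, 53.6 and 56.6 in control STZ, 77.2 and 84.6 in knockout vehicle, and 20 and 20.5 in knockout STZ (log2 interaction -2.57, SE 0.13, adjusted p = 1.98e-06). Pdyn, the prodynorphin gene, was at 71.9 and 68.5 CPM in control vehicle, 96.3 and 92.8 in control STZ, 65 and 65 in knockout vehicle, and 11.6 and 10.9 in knockout STZ (log2 interaction -2.96, SE 0.13, adjusted p = 1.05e-06). Frmd5 was at 11.7 and 10.5 CPM in control vehicle, 17.3 and 16.5 in control STZ, 18.1 and 19.4 in knockout vehicle, and 2.41 and 2.39 in knockout STZ (log2 interaction -3.57, SE 0.19, adjusted p = 2.33e-06). With TMM, all 4 rose after STZ in control and fell in knockout to below every other library. Their interactions stayed negative on the pan-endocrine scale (-0.38, -0.34, -0.74 and -1.34). The genes that set that scale had a median TMM response of 0.1 in control and -1.97 in knockout. Responses that are opposite with TMM need not be opposite on that scale, which was not tested. On the positive side, Dmbt1, a mucin-like gene of the exocrine pancreas, was at 9129 and 9379 CPM in control vehicle, 3071 and 3085 in control STZ, 1476 and 1591 in knockout vehicle, and 12754 and 12791 in knockout STZ (log2 interaction 4.65, SE 0.14, adjusted p = 1.6e-07). Tmc5 was at 25.4 and 26 CPM in control vehicle, 2.07 and 1.88 in control STZ, 2.26 and 2.20 in knockout vehicle, and 15.1 and 14.8 in knockout STZ (log2 interaction 6.45, SE 0.16, adjusted p = 9.83e-08). Gsta1, a glutathione transferase gene, had 0 counts in knockout vehicle and 49.5 and 46.2 CPM in knockout STZ, at least 4150-fold more. Sprr2a1 shares all its exon bases with Sprr2a2 and is uncertain.

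The 10 largest negative interactions, Esr1 and Frmd5 among them, lay between -4.60 and -3.57. Cntnap2, a neurexin family gene, was at 54.5 and 55.6 CPM in control vehicle, 58.2 and 56.1 in control STZ, 35.8 and 40.9 in knockout vehicle, and 3.19 and 2.70 in knockout STZ (log2 interaction -3.76, SE 0.17, adjusted p = 1.05e-06; -1.53 pan-endocrine). Cox6a2, a muscle-type subunit of cytochrome oxidase, was at 4.90 and 4.12 CPM in control vehicle, 12.8 and 14.4 in control STZ, 8.68 and 4.80 in knockout vehicle, and 0.741 and 0.927 in knockout STZ. It rose in control and fell in knockout (log2 interaction -4.60, SE 0.54, adjusted p = 0.000211; -2.39 pan-endocrine). Tcf24, a helix-loop-helix factor gene, was at 25.5 and 23.9 CPM in control vehicle, 44.7 and 41.9 in control STZ, 91.5 and 116 in knockout vehicle, and 14.5 and 13.2 in knockout STZ (log2 interaction -3.71, SE 0.26, adjusted p = 1.14e-05; -1.48 pan-endocrine). Fam19a1, Csmd2, Adam32, Otud7a and C2cd4c lay between -3.67 and -3.62. C2cd4c had 0.446 and 4.92 CPM in control vehicle, and its call was lost without any of 6 single libraries, all but the control vehicle pair (adjusted p up to 0.124). Nell1, Spock1 and Tmem215 passed in knockout alone, as Cntnap2 did, at -3.01, -3.13 and -2.90 (-0.79, -0.91 and -0.67 pan-endocrine). On the positive side of that class, Il2rg, the shared cytokine receptor chain, was at 2.67 and 2.90 CPM in control vehicle, 2.49 and 2.52 in control STZ, 2.06 and 2.00 in knockout vehicle, and 89.8 and 89.3 in knockout STZ (log2 interaction 5.62, SE 0.15, adjusted p = 1.18e-07), and Gsta4 at 6.41.

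A small class responded in control islets alone. Fkbp5 (chromosome 17, 28398753 to 28486149), a glucocorticoid-induced co-chaperone gene, was at 204 and 201 CPM in control vehicle, 65.9 and 67 in control STZ, 64.3 and 60.8 in knockout vehicle, and 63.9 and 65.4 in knockout STZ. Control vehicle stood apart, and the libraries of the other 3 groups lay close together (log2 interaction 1.66, SE 0.14, adjusted p = 2.68e-05). Sesn1 (1.39, adjusted p = 0.000431), Ccrn4l, the gene of the deadenylase nocturnin (1.32, adjusted p = 8.56e-05), and Pex11a, a peroxisome gene (1.34, adjusted p = 0.000423), had the same pattern of a high control vehicle and 3 similar groups. The negative members were Calr (-0.60, adjusted p = 0.00675; 1.62 pan-endocrine), Neat1 (-0.57, adjusted p = 0.00467; 1.65 pan-endocrine), Gpx2 (-1.44, adjusted p = 0.00397; 0.78 pan-endocrine) and Kcnk13 (-1.79, adjusted p = 0.00359; 0.43 pan-endocrine). A further 93 positive and 60 negative genes passed neither STZ test alone, such as Eif4b (0.54, adjusted p = 0.0085; -0.24 per total count) and Ptges (-1.52, adjusted p = 0.0143; 0.70 pan-endocrine). The calls of Ptges, Acvr1, B3gnt9 and Fam46a in this class were lost without 1 to 3 single libraries (adjusted p up to 0.0648): Ptges without knockout STZ A, Fam46a without control vehicle A or knockout STZ B, Acvr1 without control STZ A, knockout vehicle B or knockout STZ B, and B3gnt9 without control vehicle B, control STZ B or knockout STZ A.

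**Figure D5:**
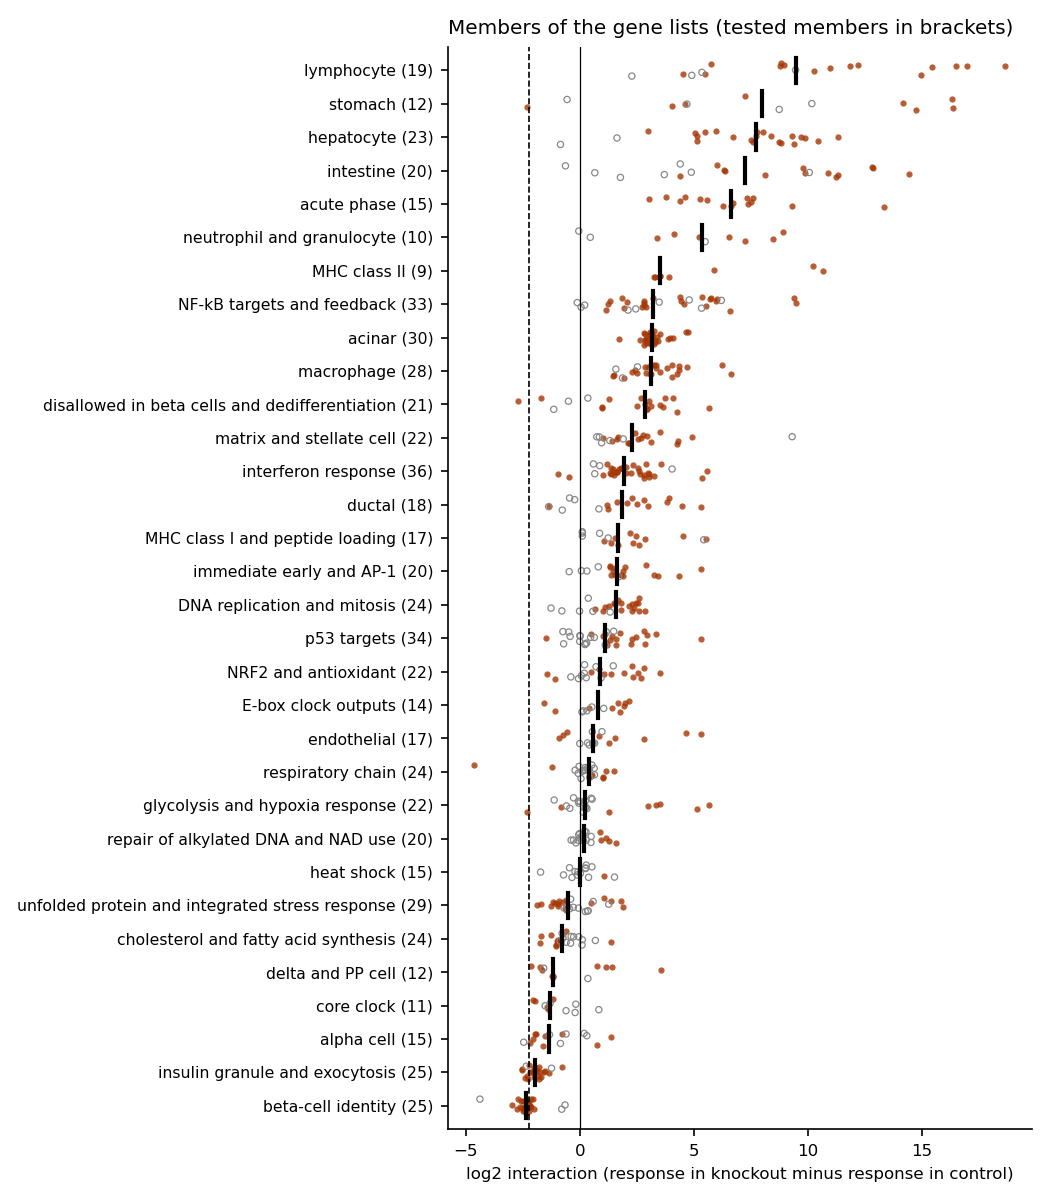
Each row is 1 of 32 gene lists and each point a tested member, at its log2 interaction on the TMM scale with groups at 0 counts set at 3; filled points passed the threshold, open ones did not, black bars are medians, and points are spread vertically for legibility. The solid line is 0 and the dashed line is where 0 falls on the pan-endocrine scale: beta-cell identity has its median just left of the dashed line, whereas the alpha-cell, delta and PP cell and core clock medians lie between the lines and so are positive on that scale.

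Libraries taken 4 wk after STZ, whose values do not enter the interaction contrast, give the genotype difference at a later time. Of the 3676 genes more positive in knockout at 24 h, 2264 (61.6%) were higher in knockout than in control at 4 wk and 38 were lower, against 19.9% and 7.89% of all tested genes. Of the 2882 more negative ones, 1020 (35.4%) were lower at 4 wk and 99 higher. Beta-cell identity genes were lower in knockout in 19 of 25, macrophage genes higher in 24 of 28 and interferon genes in 28 of 36. All 4 wk values are on the TMM scale, and other scales were not tested for them. The 20 genes that set the pan-endocrine scale had a median 4 wk difference of -0.69, with 14 lower in knockout. For the identity genes the median was -1.03. Slc2a2 differed by -0.56 at 4 wk (adjusted p = 0.00822), Lyz2 by 1.85 (adjusted p = 5.6e-06), Lgals3 by 5.35 (adjusted p = 5.75e-07) and Cdkn1a by 1.59 (adjusted p = 6.97e-06). Acinar genes were higher in 10 of 30. The series holds no vehicle group of that time, so no interaction is given for 4 wk.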

How the data were processed

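Islet RNA of 12 libraries (6 groups of 2) was measured by stranded mRNA sequencing, per the labels' protocols. The authors deposited 1 table of estimated counts per gene made with StringTie 1.3.6 on mm10 gene models, per the file headers, and these expected counts were rounded to whole numbers. No header or label names the aligner. Transcript files deposited by the authors gave exon coverage, and each transcript's count equalled its coverage times length over 75 within 1 (35119 of 35119 transcripts), so counts scale with coverage and are not whole reads. Genes that share most exon bases with another gene on the same strand, and near copies, are named as uncertain.

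Counts were fitted in edgeR 4.0.16 (R 4.3.3) with TMM scaling, filterByExpr and the robust quasi-likelihood F test over 6 group means in all 12 libraries, and p-values were adjusted by Benjamini-Hochberg over 17411 genes with a threshold of 0.05. SE is the log2 value over the square root of F. Groups at 0 counts were set at 3 counts over the group for bounds and medians so described. The pan-endocrine scale takes library size from 20 endocrine genes. Alternatives in other software used DESeq2 1.42.0. On simulated counts of 16986 genes the interaction test called 12% of 2-fold and 74% of 4-fold genes, 2% at 0.5-fold, 76% at 0.25-fold and 0.0119% of unchanged ones.

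The members and gene lists were chosen with earlier results of these data known. Named genes were the 10 with the largest interaction each way and the 4 with the smallest p per response class and direction. Both sets came from called genes with at least 2 CPM on average. Added without that minimum were the 4 with the smallest p per gene list and called list members that went against their list. A short list of core genes was always named. Cry1, Clock, Nr1d2, Ciart, Ddit3, Bax, Zmat3 and Xpc fall outside these rules and were chosen after their values were seen. Results for a few further named genes are not reported here.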

Additional observations from a re-analysis of the deposited data

Results flagged for a closer look

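The interaction is itself a test of whether the STZ response differs between genotypes, and it passed for 6558 genes, 3676 more positive and 2882 more negative in knockout. On the TMM scale, 267 positive and 50 negative genes moved in opposite directions in the 2 genotypes. For these, both responses and the interaction passed the threshold. The 4 with the smallest interaction p in each direction are given here. Other named genes crossed as well. Adra2a had a log2 interaction of -2.57, Vdr of -2.61, Pdyn of -2.96 and Frmd5 of -3.57. Dmbt1 had 4.65 and Tmc5 6.45. Gsta1, with a group at 0 counts set at 3, had 14.17, and Sprr2a1, which shares its exons with Sprr2a2, had 15.34. No group of 24 h libraries held enough samples for a test of outlying samples.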

How the results depend on the processing

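Scale had the largest effect on the counts. Per total count, 10144 genes passed, 2436 positive and 7708 negative, and on the pan-endocrine scale 13859 passed, 13801 positive and 58 negative. The other settings gave totals within 1.5 times the reported 6558: 6427 with DESeq2 size factors, 6401 without the count filter, 7459 with DESeq2's Wald test, 7965 in a fit of the 8 libraries alone and 9175 with a GC offset chosen after seeing the data (5039 positive, 4136 negative). Leaving out each library in turn gave 5111 to 6024 genes, 3006 to 3446 positive and 2090 to 2681 negative, the left-out group's lone library being assumed to vary like the others, and 4568 of the calls (69.7%) were kept in all 8 such fits.

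Letters A and B were not taken as pairs: correlations of A minus B gaps over genes were 0.09 between the vehicle groups and 0.04 between the STZ groups at 24 h, -0.09 to -0.02 within genotype, and, with the 4 wk groups in the fit, from -0.33 (knockout vehicle with knockout 4 wk) to 0.41 (between the 4 wk groups). With the letter as a replicate block over all groups 6156 genes passed, 3489 positive and 2667 negative, and with the block paired within condition 9484, 4845 positive and 4639 negative.

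Of 163 named genes, 4 changed sign per total count: Eif2ak3 (-0.31), Eif4b (-0.24), Hhex (-0.02) and Mkl2 (-0.25). On the pan-endocrine scale 31 negative interactions turned positive: Acvr1 1.08, Arntl 0.83, B3gnt9 1.08, Bhlhe41 0.64, Cacna1d 0.39, Calr 1.62, Etv1 0.62, Fam46a 0.98, Fev 0.23, Gad1 0.24, Gcg 0.71, Ghsr 0.07, Gpx2 0.78, Hyou1 0.54, Irx2 0.30, Itpr1 1.55, Kcnk13 0.43, Krt7 0.88, Neat1 1.65, Nfil3 0.81, Npas2 0.24, Per2 1.16, Ptges 0.70, Ptprn2 0.15, Rsad2 1.25, Sdf2l1 0.97, Sertm1 0.47, Sqle 0.51, Tigar 0.73, Tnfrsf11b 0.51 and Usp18 1.75. Calls were lost without a change of sign for 9 genes per total count (Asns, Cd24a, Edem1, Nr1d1, Rbp4 and Slc38a5 among them, adjusted p 0.0515 to 0.576) and for 12 on the pan-endocrine scale (C2cd4c, Glp1r, Iapp, Ins1, Ins2, Neurog3, Otud7a, Pcsk2, Scg5, Slc2a2 and Slc30a8 among them, adjusted p 0.0567 to 1). The sign changes follow from the shift of the scale; which scale fits islets with fewer endocrine transcripts was not tested. C2cd4c lost its call under both blocks and the GC offset, Fev and Hhex under the GC offset, and Usp18 with DESeq2 size factors. With 2 libraries a group, changes near 2-fold were often not called in the simulated counts. In these data, whose counts scale with coverage, some smaller interactions were called, such as Eif2ak3 (0.47) and Calr (-0.60). The simulated shares therefore need not hold for each gene.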
